A study of Mus musculus with 21 samples.

Results

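The open chromatin of Spi1 and Cebpa, a pair of genes for myeloid transcription factors, was followed through successive progenitors of innate lymphoid cells in mouse bone marrow. Members were all peaks of the 4 deposited lists that overlapped a window of 80 kb around Spi1 (chr2:90890000-90970000, build mm9) or a window of 130 kb around Cebpa (chr7:35870000-36000000). The rule uses positions and no measured value of a peak. The members number 60 of the 215239 peaks in the lists: 21 in the all-lymphoid progenitor (ALP), 19 in the early ILC progenitor (EILP), 19 in the ILC precursor (ILCP) and 1 in the list of TCF1 binding in EILP. After merging peaks that share at least 1 bp, the DNase peaks form 15 regions at Spi1 and 14 at Cebpa, out of 102384 in the genome. Regions are numbered along the chromosome, from Spi1-1 to Spi1-15 and from Cebpa-1 to Cebpa-14.

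PU.1, the product of Spi1, is an ETS-family factor that is needed by early lymphoid as well as myeloid progenitors and is kept high in macrophages and granulocyte precursors. Its gene is controlled by a conserved upstream regulatory element that PU.1 itself binds, and it is switched off when cells commit to the T lineage. C/EBPα, the product of Cebpa, is a basic leucine zipper factor that directs progenitors to the granulocyte and monocyte fates, and its expression in myeloid progenitors depends on an enhancer downstream of the gene. TCF1, encoded by Tcf7, is an HMG-box factor that is switched on in ILC and T cell progenitors.

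The samples were sorted from C57BL/6 bone marrow. All sorts took Lin- Kit+ 2B4+ cells: ALP were a4b7- with Flt3high and IL-7Ra+, EILP were a4b7+ and Tcf7+ but Thy1-, and ILCP were a4b7+, Tcf7+, IL-7Ra+ and Thy1+. ALP and ILCP carried the label Tcf7EGFP/+, and EILP carried Tcf7EGFPnull/+. Genotype and stage therefore cannot be told apart where EILP is set against another stage, if these labels hold; the header of each DNase list names its pooled tags WT. DNase-seq, in which cuts by DNase I pile up at accessible DNA as hypersensitive sites (DHS), was made from 300 cells in each of 3 libraries per stage. CUT&RUN, which cuts DNA around an antibody's target with a tethered nuclease, mapped TCF1 in EILP from 500 cells a library (6 titled TCF1 and 4 titled IgG, some of them technical repeats). In the labels, the TCF1 antibody is also entered for the libraries titled IgG. A further 2 libraries had conflicting antibody labels and belong to no group here, although their library number is named in the pooled IgG control. Ages are not given in the labels.

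Because the libraries of a stage were pooled before peak calling, there is no replicate error and no test between stages, and the 95% intervals given cover the counting of tags only. The pooled files held 12420429 filtered tags for ALP, 11236009 for EILP, 12681410 for ILCP and 2418839 for TCF1. Peak height is the number of tags over the summit, given as CPM, the count scaled to 1000000 filtered tags. A second readout was the number of tags in the 10 kb around a summit, which the peak caller used as local background and which can be worked back from the deposited fold enrichment. It rests on more tags than the height and is given in CPM as well. Over regions open at both stages in the genome, the median ratio of heights was 1.11 for EILP over ALP and 0.960 for ILCP over EILP, and that of 10 kb tags 1.06 and 0.970.

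Gene positions were not read from an annotation of this build, and the stages were not checked against marker genes for the same reason. In the GRCm38.p6 gene order, Rapsn, Psmc3 and Slc39a13 precede Spi1 and Mybpc3 and Madd follow it, while Cebpg precedes Cebpa and Slc7a10 and Lrp3 follow it, so some peaks of the windows may belong to these neighbours. Cebpa itself lies at about chr7:35904000-35907000. Region Cebpa-6 (chr7:35904035-35904428) lies at the start of that interval and serves as the start-side peak of Cebpa. Region Spi1-12 (chr2:90936666-90936986) serves as the start-side peak of Spi1. It was the highest ALP peak in the stretch where the Spi1 promoter is known to lie.

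The sequence just before the Cebpa start is shown because it is the only promoter of the pair with an entry in the RefSeq promoter table used (GRCm38.p6, plus strand, 250 bases, chr7:35119043-35119292). The start-side peak Cebpa-6 was present at all 3 stages, but its overlap with these bases was not checked, since the builds differ. Capitals mark a TATA box (TATAAA) that begins 30 bases before the start and a stretch of the CTCF core (CAGGGGGC) that begins 52 bases before it.
Cebpa: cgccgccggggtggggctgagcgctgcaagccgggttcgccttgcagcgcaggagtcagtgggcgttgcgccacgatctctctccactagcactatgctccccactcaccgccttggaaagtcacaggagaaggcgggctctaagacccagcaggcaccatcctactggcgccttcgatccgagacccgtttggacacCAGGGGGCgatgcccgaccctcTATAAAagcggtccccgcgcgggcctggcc
On both strands, TATAAA occurs in 12.4% and CAGGGGGC in 2.52% of the 32851 promoter entries of this length; both motifs were chosen after the sequence was seen. The sequence has 66.4% G and C, more than 85.2% of the entries, and 22 CpG dinucleotides against a median of 6. The letters of the PU.1 core (TTCCTC), the C/EBP core (TTGCNNAA), the RUNX core (TGTGGT), the TCF core (CTTTGA) and the CATCTG E-box were not in this window on either strand. They occur in 23.3%, 9.56%, 14.0%, 13.8% and 14.4% of the entries. The CCAAT box (CCAAT) was also searched and was absent here, while 33.85% of the entries hold it.

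Both loci were rich in DHS at every stage. The Spi1 window held 9 peaks in ALP, 9 in EILP and 11 in ILCP, or 11.2, 11.2 and 13.8 per 100 kb, against 2.59, 2.73 and 2.80 over the genome. The Cebpa window held 12, 10 and 8 peaks in the same order of stages, or 9.23, 7.69 and 6.15 per 100 kb. The peak number at Cebpa was thus lower at each later stage, whereas at Spi1 it was highest in ILCP. With a deposited −log10 q of at least 3, the Cebpa window held 10 peaks in ALP, 10 in EILP and 8 in ILCP, so ALP and EILP no longer differed. Of the regions, 7 of 15 at Spi1 and 7 of 14 at Cebpa were open at all 3 stages, against 39.0% of regions in the genome.

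At Spi1, the upstream element and the start-side peak both had their lowest height in ILCP. Region Spi1-8 (chr2:90923082-90923374), 13.6 kb upstream of the start-side peak, is placed where the mouse upstream regulatory element is known to lie relative to the promoter, and it is called the upstream element here without a check against an annotation. Its height was 3.06 CPM in ALP (2.17 to 4.20), 2.85 in EILP (1.95 to 4.02) and 1.58 in ILCP (0.963 to 2.44). The intervals of the 3 heights overlapped, and ILCP was the lowest stage. By height it stood above 93.6% of the regions of the ALP list, 90.9% in EILP and 71.5% in ILCP. The ratio of ILCP (20 tags) over EILP (32 tags) was 0.554 (0.300 to 0.998), lower than at 92.1% of the 49369 regions open at both stages.

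The start-side peak Spi1-12 had the same order of stages as the upstream element. Its height was 2.50 CPM in ALP (1.70 to 3.54), 2.49 in EILP (1.66 to 3.60) and 1.42 in ILCP (0.841 to 2.24). ALP and EILP differed by less than counting error, and ILCP was lower, at 0.570 times EILP (0.297 to 1.07), an interval that includes 1. Within each list, the upstream element stood at 1.23 times the start-side peak in ALP, 1.14 times in EILP and 1.11 times in ILCP, and all 3 intervals include 1. Heights of the pair therefore did not separate from each other at this depth at any stage.

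By height, not every region near the Spi1 start was lower in ILCP. Region Spi1-14 (chr2:90941643-90941879), 4.91 kb downstream of the start-side peak, had 1.93 CPM in ALP (1.24 to 2.88), 2.40 in EILP (1.58 to 3.50) and 2.44 in ILCP (1.66 to 3.47). It stood at 1.02 times its EILP height in ILCP (0.588 to 1.77). Relative to the start-side peak it was 0.774 (0.435 to 1.36) in ALP, 0.964 (0.547 to 1.70) in EILP and 1.72 (0.934 to 3.27) in ILCP, so in ILCP it was the higher of the pair, although the interval includes 1. Region Spi1-10 (chr2:90927739-90927960), between the upstream element and the start-side peak, had heights of 1.53, 1.42 and 1.42 CPM in ALP, EILP and ILCP. The 10 kb tags were lower in ILCP around both, with ILCP over EILP at 0.778 (0.614 to 0.985) for Spi1-14 and 0.701 (0.576 to 0.852) for Spi1-10. The 10 kb around Spi1-14 reach into Spi1-12 and hold Spi1-13, and those around Spi1-10 hold Spi1-8 and Spi1-9. These counts therefore do not describe Spi1-14 and Spi1-10 alone.

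By height, a pair of strong peaks farther upstream differed less between stages. Region Spi1-5 (chr2:90910312-90910961), 26.0 kb upstream of the start-side peak, had the highest fold enrichment of the window in ALP, 12.7, and its heights were 3.30, 3.11 and 2.92 CPM in ALP, EILP and ILCP. Region Spi1-2 (chr2:90893996-90894560), 42.7 kb upstream, had the highest fold enrichment in EILP, 12.1, and in ILCP, 13.9. Its heights were 2.17, 2.40 and 2.76 CPM in ALP, EILP and ILCP. The height intervals of the 3 stages overlapped at both regions. By 10 kb tags, ILCP over EILP was 0.790 (0.647 to 0.966) at Spi1-5, so the count was lower in ILCP there, and 1.07 (0.842 to 1.36) at Spi1-2. They lie on the side of Slc39a13 and Psmc3 in the gene order, and which gene they belong to was not determined.

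The largest ratio of heights at either locus was at the far side of Spi1. Region Spi1-15 (chr2:90955266-90955497), 18.5 kb downstream of the start-side peak, had 0.483 CPM in ALP (6 tags, 0.177 to 1.05), 1.87 in EILP (21 tags, 1.16 to 2.86) and 0.867 in ILCP (11 tags, 0.433 to 1.55). EILP stood above ALP with intervals that did not overlap, and ILCP lay between them. The ratio of EILP over ALP was 3.87 (1.51 to 11.7), and 0.0766% of the 49631 regions open at both stages had a higher one. ILCP over EILP was 0.464 (0.202 to 1.01). In the 10 kb around it, EILP over ALP was 1.42 (1.03 to 1.96), and 6.25% of shared regions had a higher ratio. That count includes the tags over the summit. Leaving them out gave 1.19 (0.837 to 1.695), an interval that includes 1. The ALP peak rests on 6 tags with a deposited −log10 q of 2.64, so with a cutoff of 3 this region was gained at EILP.

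**Figure D1:**
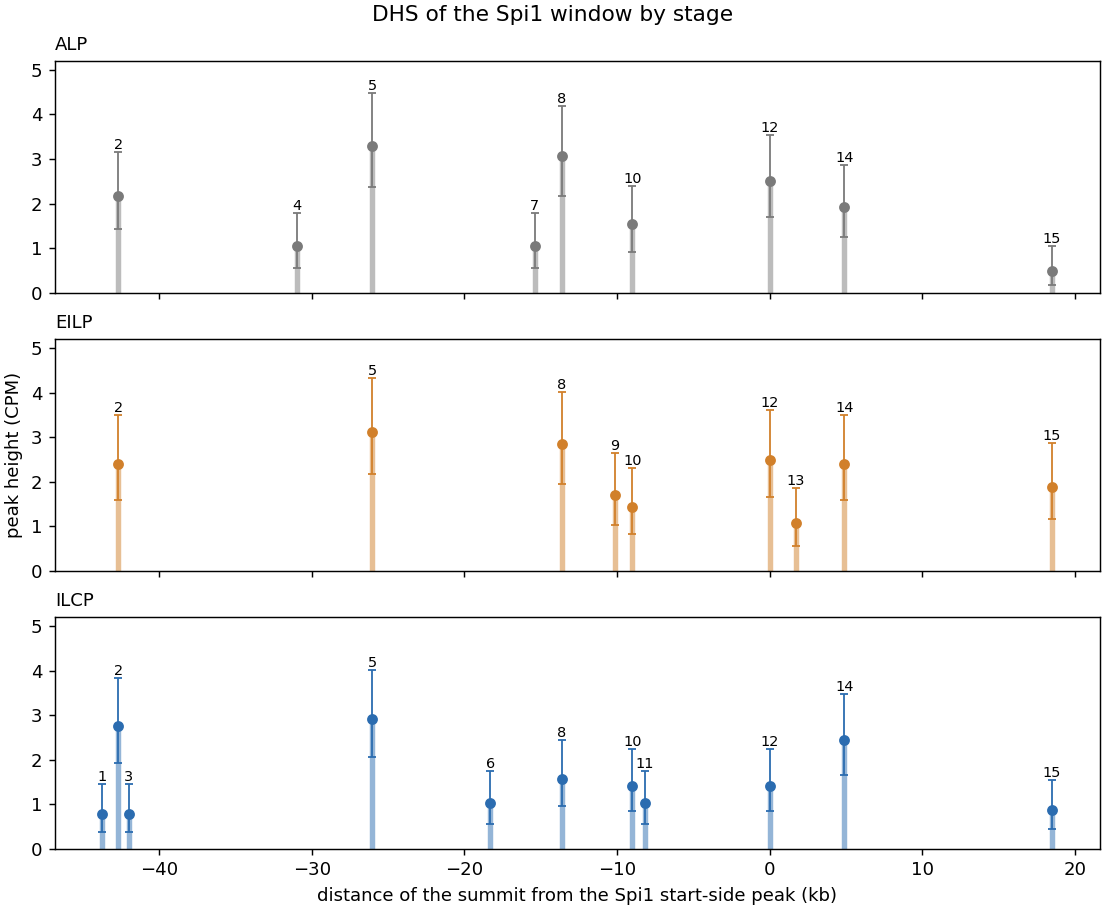
Peak height in CPM, scaled to 1000000 filtered tags (points with 95% counting intervals) against distance of the summit in kb from the start-side peak Spi1-12, for ALP, EILP and ILCP from top to bottom, with region numbers above the points. Regions 8 and 12 stand at 1.58 and 1.42 in ILCP, below their ALP and EILP heights, while regions 2, 5 and 14 stay between 1.93 and 3.30 at every stage.

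The remaining 8 regions of the Spi1 window were each found at 1 stage and had low fold enrichment. ALP alone had Spi1-4 (chr2:90905830-90905929) and Spi1-7 (chr2:90921411-90921510), both at 1.05 CPM. EILP alone had Spi1-9 (chr2:90926596-90926794) at 1.69 and Spi1-13 (chr2:90938467-90938630) at 1.07 CPM. ILCP alone had Spi1-1 (chr2:90893002-90893194) and Spi1-3 (chr2:90894764-90894877), which flank Spi1-2 and stood at 0.789 CPM, and Spi1-6 (chr2:90918456-90918628) and Spi1-11 (chr2:90928510-90928870) at 1.03. Their fold enrichment, between 4.15 and 6.20, was below the median of regions of the same list in every case. A region is called gained when open at the later stage only, and lost when open at the earlier stage only. At EILP, 2 of 9 regions were thus gained, against 28.1% in the genome, and 2 of 9 ALP regions were lost, against 24.1%. At ILCP, 4 of 11 were gained, against 30.6%, and 2 of 9 EILP regions were lost, against 28.4%. These counts of 2 to 4 regions set no share apart from the genome's.

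At Cebpa, the start-side peak was open throughout. Cebpa-6 had 2.66 CPM in ALP (1.83 to 3.73), 2.58 in EILP (1.73 to 3.71) and 1.89 in ILCP (1.21 to 2.82). The intervals overlapped, with ILCP the lowest stage, at 0.733 times EILP (0.409 to 1.30). ALP had a further peak 0.646 kb upstream, Cebpa-5 (chr7:35903591-35903695), with 1.05 CPM, which was absent from the EILP and ILCP lists.

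The region at the position of the known downstream enhancer was highest in EILP and carried the only TCF1 peak at either locus. Region Cebpa-11 (chr7:35941405-35942038) lay 37.4 kb downstream of the start-side peak. Its height was 1.21 CPM in ALP (0.676 to 1.99), 1.78 in EILP (1.09 to 2.75) and 0.946 in ILCP (0.489 to 1.65). The intervals of the 3 heights overlapped: EILP over ALP was 1.47 (0.717 to 3.09) and ILCP over EILP was 0.532 (0.237 to 1.14). The EILP peak was also the widest, at 634 bp, against 400 bp in ALP and 413 bp in ILCP. A course with the highest height in EILP was seen in 42.2% of regions open at all 3 stages, so the order of stages alone does not set this region apart.

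The TCF1 peak (chr7:35941776-35942041) had 7 tags at its summit (2.81 to 14.4), a fold enrichment of 6.41 over control, above 87.0% of the TCF1 list, and a deposited −log10 q of 4.80. The local control background was 0.249 tags, against a genome level of 0.129. Its summit lay 213 bp downstream of the EILP DHS summit, and 263 of its 266 bp lay inside the EILP peak, compared with 148 bp inside the ALP peak and 184 bp inside the ILCP peak. Among EILP regions of the genome 5.62% held a TCF1 peak, and here it was 1 of 10 at Cebpa and 0 of 9 at Spi1. The nearest TCF1 peaks to the Spi1 start-side peak lay 131.6 kb upstream and 158.4 kb downstream. TCF1 data were shallow, with a median of 5 tags at a peak, so binding of lower signal at Spi1 was not detectable at this depth. A TCF1 peak was found in 1 of the 14 regions open at all 3 stages, against 7.82% (3117 regions) in the genome.

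Farther downstream of Cebpa, region Cebpa-12 (chr7:35954494-35954719), at 50.3 kb, had the highest fold enrichment of the window at every stage, with 12.2 in ALP, 11.3 in EILP and 12.3 in ILCP. Its height was steady at 2.09, 2.14 and 1.97 CPM in ALP, EILP and ILCP. The neighbouring Cebpa-13 (chr7:35956925-35957214), at 52.8 kb, had 1.05 CPM in ALP (0.557 to 1.79), 1.60 in EILP (0.949 to 2.53) and 0.867 in ILCP (0.433 to 1.55). Like the enhancer region it was highest in EILP, with overlapping intervals. Cebpa-14 (chr7:35962086-35962266), at 57.9 kb, was low, with 0.564, 0.623 and 0.867 CPM in the same order.

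On the near side, Cebpa-7 (chr7:35909805-35910078), 5.73 kb downstream of the start-side peak, had the highest ratio of heights of EILP over ALP at this locus. It had 0.886 CPM in ALP (0.442 to 1.59), 1.51 in EILP (0.881 to 2.42) and 1.10 in ILCP (0.604 to 1.85). EILP over ALP was 1.71 (0.755 to 4.04), an interval that includes 1, and by 10 kb tags it was 1.01 (0.799 to 1.27). Upstream of Cebpa, region Cebpa-2 (chr7:35883842-35884114) had 1.69 CPM in ALP and 1.25 in EILP, and no peak in ILCP. Among the regions gained or lost at a step in either window it alone had a fold enrichment above its list's median over regions, with 7.54 in EILP against a median of 6.88.

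**Figure D2:**
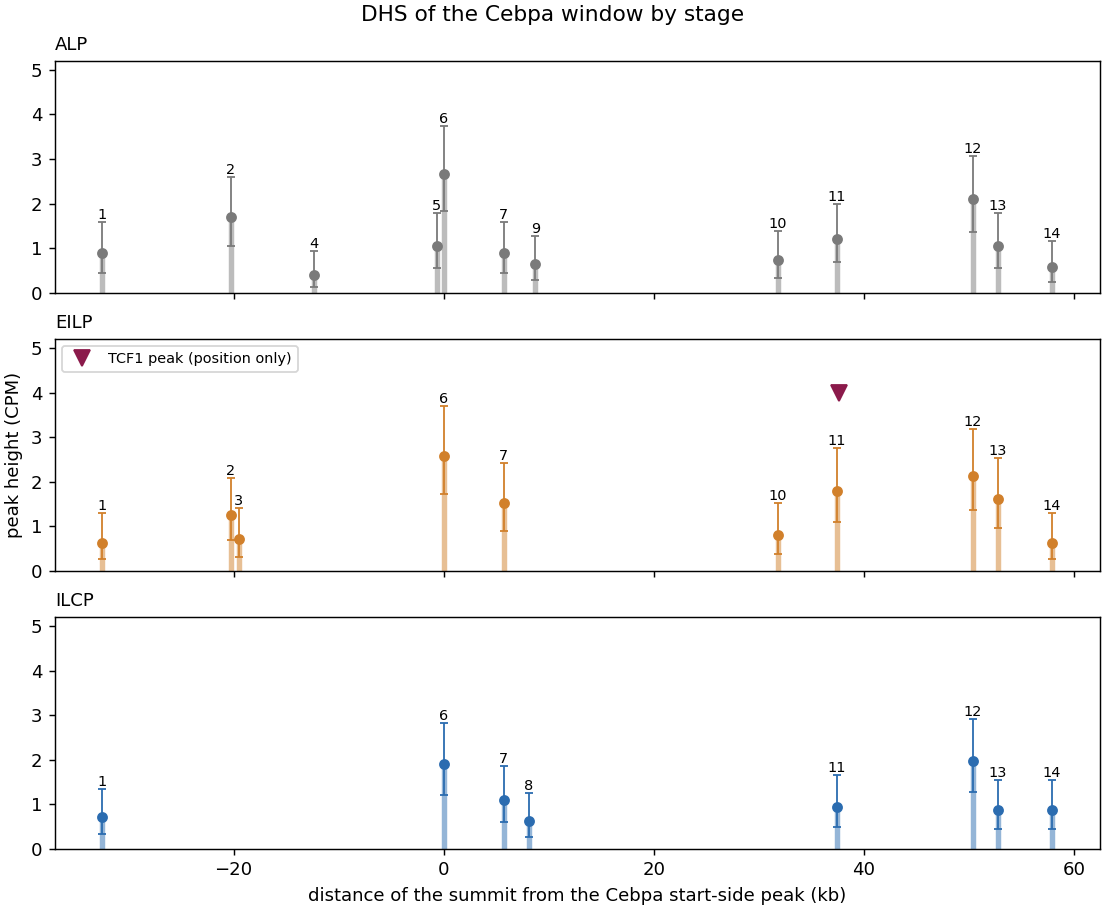
Peak height in CPM, scaled to 1000000 filtered tags (points with 95% counting intervals) against distance of the summit in kb from the start-side peak Cebpa-6, for ALP, EILP and ILCP from top to bottom, with region numbers above the points and a triangle at the TCF1 peak. Region 11 stands at 1.21 in ALP, 1.78 in EILP and 0.946 in ILCP, and region 12 lies between 1.97 and 2.14 at each stage.

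The other regions at Cebpa were weak. Cebpa-1 (chr7:35871688-35871863) was open at all stages at 0.886, 0.623 and 0.710 CPM in ALP, EILP and ILCP, and Cebpa-10 (chr7:35936025-35936211) was open in ALP and EILP at 0.725 and 0.801. Cebpa-4 (chr7:35891817-35891946) and Cebpa-9 (chr7:35912918-35913094) were found in ALP alone, at 0.403 and 0.644 CPM. Cebpa-3 (chr7:35884679-35884838) was found in EILP alone at 0.712, and Cebpa-8 (chr7:35912285-35912425) in ILCP alone at 0.631. At EILP, 1 of 10 regions was gained, against 28.1% in the genome, and 3 of 12 ALP regions were lost, against 24.1%. At ILCP, 1 of 8 was gained, against 30.6%, and 3 of 10 EILP regions were lost, against 28.4%. Set against ALP directly, ILCP gained 4 of 11 regions at Spi1 and 1 of 8 at Cebpa, against 38.1%, and lost 2 of 9 and 5 of 12, against 32.6%. All 5 regions gained in ILCP were thus missing from both earlier lists; regions shared by EILP and ILCP but not ALP make up 9.27% of the genome's and were not found at either locus.

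The 10 kb tags gave narrower intervals and the clearest differences. Around the enhancer region Cebpa-11 there were 93 tags in ALP, 148 in EILP and 98 in ILCP, or 7.49 (6.04 to 9.17), 13.2 (11.1 to 15.5) and 7.73 (6.27 to 9.42) CPM. The EILP interval did not overlap either of the others, while the ALP and ILCP intervals overlapped, with ILCP over ALP at 1.03 (0.769 to 1.39). EILP over ALP was 1.76 (1.35 to 2.31), and 0.892% of shared regions had a higher ratio. ILCP over EILP was 0.587 (0.450 to 0.762), and 1.44% had a lower one. Leaving out the tags over the summit gave 1.81 (1.36 to 2.44) and 0.595 (0.448 to 0.789). Tags elsewhere in the peak, which was widest in EILP, stayed in these counts. They therefore cannot show whether the difference reached beyond the DHS.

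Around the Spi1 upstream element, Spi1-8, the same count was 20.6 CPM in ALP (18.2 to 23.3), 23.8 in EILP (21.0 to 26.8) and 14.2 in ILCP (12.2 to 16.4). ILCP was below both earlier stages, whose intervals overlapped. In EILP this was a higher count than around 96.9% of regions of that list. ILCP over EILP was 0.597 (0.492 to 0.724), and 1.70% of shared regions had a lower ratio. ILCP over ALP was 0.689 (0.566 to 0.837), with 6.35% lower. The 10 kb around Spi1-8 also hold Spi1-6, Spi1-7 and Spi1-9, each called at 1 stage, and Spi1-10.

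The start-side peaks followed the same direction. Around Spi1-12 there were 13.5 CPM in ALP, 16.4 in EILP and 11.0 in ILCP, and ILCP over EILP was 0.669 (0.533 to 0.839). Around Cebpa-6 there were 16.3 in ALP, 18.0 in EILP and 11.7 in ILCP, and ILCP over EILP was 0.654 (0.525 to 0.812). Shares of 4.38% and 3.59% of shared regions had a lower ratio of ILCP over EILP. For ILCP over ALP the ratio was 0.81 (0.64 to 1.02) around Spi1-12, an interval that includes 1. It was 0.72 (0.58 to 0.89) around Cebpa-6. Around Cebpa-12 the order of stages was the same, at 9.82, 10.9 and 8.83 CPM in ALP, EILP and ILCP, with overlapping intervals. The difference was smaller there, with ILCP over EILP at 0.813 (0.624 to 1.06), and 18.1% of shared regions had a lower ratio.

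**Figure D3:**
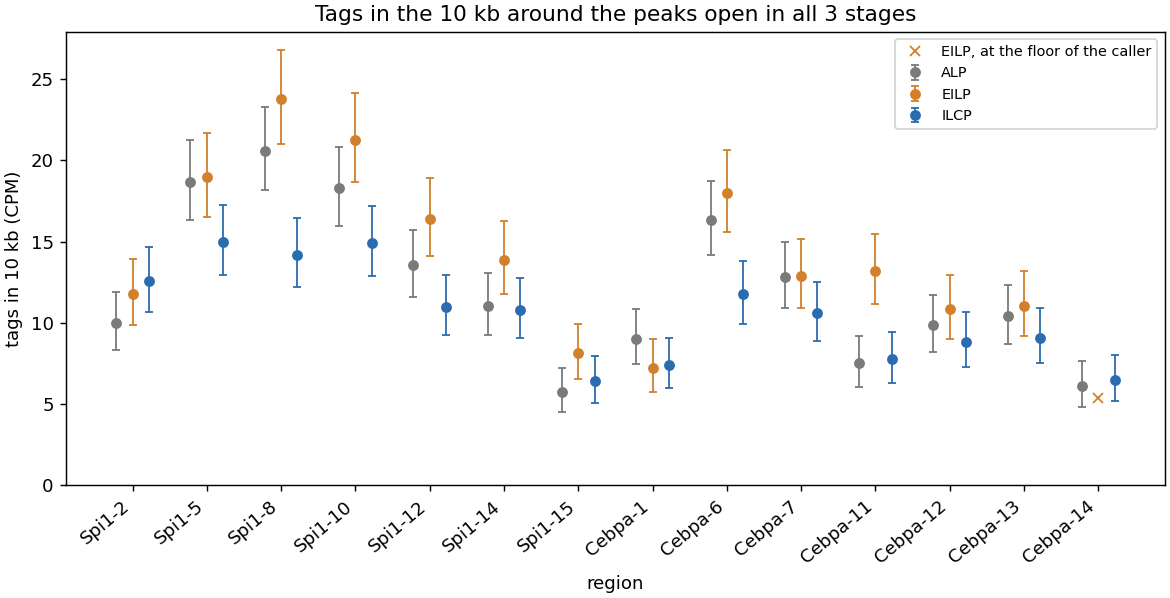
Tags in the 10 kb around each region open at all 3 stages, in CPM (points with 95% counting intervals; the cross is a value at the floor of the peak caller), for ALP, EILP and ILCP. Cebpa-11 is highest in EILP, at 13.2, and Spi1-8, Spi1-12 and Cebpa-6 are highest in EILP and lowest in ILCP. These orders are common here: Spi1-5, Spi1-10, Spi1-14, Cebpa-7, Cebpa-12 and Cebpa-13 are also highest in EILP and lowest in ILCP. Spi1-15 is highest in EILP too, while Spi1-2 and Cebpa-14 are highest in ILCP and Cebpa-1 in ALP.

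Over both loci, 13 regions had 10 kb counts above the caller's floor in EILP and ILCP, and 11 of them had a ratio of ILCP over EILP below 1, as did 56.8% of shared regions in the genome. The ratio was at or below 1/1.5 in 3 of the 13 (Spi1-8, Cebpa-6 and Cebpa-11), against 4.25% of shared regions in the genome, and at or above 1.5 in 0 of the 13, against 2.07%. For EILP over ALP, 1 of 15 (Cebpa-11) was at least 1.5-fold higher, against 3.81%, and 0 of 15 were at least 1.5-fold lower, against 1.77%. By height, 5 of 14 regions (Spi1-8, Spi1-12, Spi1-15, Cebpa-11 and Cebpa-13) were at least 1.5-fold lower in ILCP than in EILP, against 15.9%, and 0 of 14 were at least 1.5-fold higher, against 10.0%. For EILP over ALP, 3 of 16 heights were at least 1.5-fold higher, against 16.4%, and 0 of 16 were at least 1.5-fold lower, against 8.04%. For ILCP over ALP, 0 of 14 were past 1.5-fold in either direction by 10 kb tags, against 4.47% higher and 5.30% lower, and by height 2 of 14 were higher, against 15.1%, and 2 of 14 lower, against 13.9%. Regions within 10 kb of each other share tags, so the members are not independent, and EILP enters both steps.

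Of the 7 regions of each locus open at all stages, 4 at Spi1 and 1 at Cebpa were lower in height at each later stage, against 16.1% of such regions in the genome, and 2 and 1 were higher at each, against 20.8%. These orders include steps far smaller than the counting error, such as EILP against ALP at Spi1-12 and ILCP against EILP at Spi1-10. A further 1 at Spi1 and 4 at Cebpa were highest in EILP, against 42.2%, and Cebpa-1 was lowest in EILP. The median log2 ratio of ILCP over EILP was -0.09 at Spi1 and -0.45 at Cebpa, against -0.06 in the genome. With the heights of a locus summed, ILCP over EILP was 0.810 (0.654 to 1.00) at Spi1 and 0.770 (0.588 to 1.01) at Cebpa, intervals that reach 1.

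**Figure D4:**
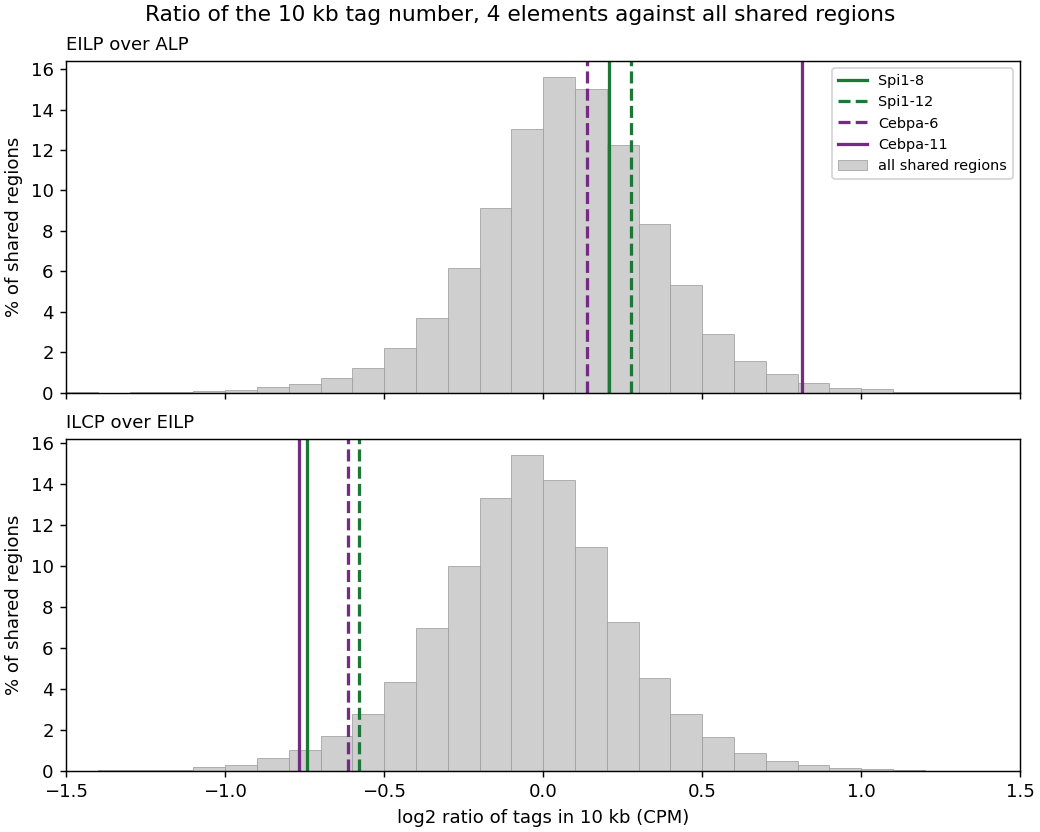
Share of shared regions of the genome (bars, %) by log2 ratio of 10 kb CPM, for EILP over ALP (top) and ILCP over EILP (bottom), with lines at Spi1-8, Spi1-12, Cebpa-6 and Cebpa-11. Cebpa-11 lies at 0.81 in the upper panel, and the 4 lines lie between -0.77 and -0.58 in the lower one.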

How the data were processed

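Per the file headers, each list came from MACS 2.1.1.20160309, run by the authors on 1 pooled tag file (q cutoff 0.05, tag length 50 bp, extension to 100 bp, duplicates limited to 1 tag per position). DNase tags were shifted by 50 bp and had no control, so their background came from 10 kb; TCF1 was called over pooled IgG. Per the submitters' processing notes the build is mm9; the aligner is not given in the sources used here. The deposited lists give height as pileup signal, strength as the ratio called fold enrichment, and −log10 of the q-value.

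Members and lists were chosen with earlier results of these data known. Tags in 10 kb were worked back as 100 times the background, which is the height plus 1, divided by the fold enrichment, minus 1; above the caller's floor 100% of values came out whole within 0.05 tags in each DHS list. This readout was added after the data were examined. In a merged region the highest peak of a list gave the height and the 10 kb tags. Height intervals are exact Poisson and ratio intervals exact binomial (Clopper-Pearson), at 95%. A ratio of 1.5 was counted as a difference. The rule for named regions took those with the highest fold enrichment per stage, a TCF1 peak, a gain or loss of above-median strength or the largest ratio at a step; the others, the start-side peaks and Spi1-14 among them, were added after their values were seen. The functions were tested on simulated lists. Python 3.11.15, pandas 2.3.3 and scipy 1.17.1 were used. The planned motif search under the peaks and the marker and myeloid gene lists needed an mm9 sequence or annotation and were not run.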

Additional observations from a re-analysis of the deposited data

How the results depend on the processing

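No paired analysis was possible because each list pools its libraries, and for the same reason no library was left out. Of 76 alternative values for counts and median ratios, 73 stayed within 1.5 times or within the counting interval. The exceptions were all at Cebpa. With −log10 q of at least 3, 1 region was lost at EILP instead of 3. With equal numbers of peaks per list, 0 were gained at ILCP instead of 1. With fold enrichment in place of height, the median log2 ratio of ILCP over EILP was 0.0154 instead of -0.45; fold enrichment divides by the local background, which was lower in ILCP around 5 of 6 regions. At Spi1 the same replacement gave 0.19 instead of -0.09 for ILCP over EILP and 0.10 instead of -0.11 for ILCP over ALP, so the sign turned, although both stayed within the counting interval. All 24 alternatives for the 10 kb tags of Spi1-8, Spi1-12, Cebpa-6 and Cebpa-11 stayed within it too. They only centred the ratios on the genome median or left out the summit tags, changes that are small beside that interval. Staying within it was thus nearly fixed in advance and adds little support for these ratios. Depth limits single heights: DHS heights rest on 5 to 41 tags, and the spread between mice and libraries is unknown.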
